A study of Sus scrofa with 6 samples.

Results

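A set of 10 neural genes of pig chromosome 2, given by name, was followed in whole embryos at embryonic day 21, and all 10 passed the expression filter that kept 1651 genes of 29838 with a deposited transcript. The genes were PAX6, NR2F1 and NEUROG1 (transcription factors), ELAVL3 and DPYSL3 (RNA binding and cytoskeleton), SYT13, SYT7 and UNC13A (vesicle trafficking), NRXN2 (synaptic adhesion) and BDNF (a neurotrophin). They had been picked from the difference between the same embryos that is described here, so their values are a description, and no p-value is given for them. The study compared 3 parthenogenetic embryos (PA) with 3 control embryos (CN). PA embryos grew from electrically activated, in vitro matured oocytes, were diploid with maternal genomes only, and were carried by surrogate gilts. CN embryos came from natural mating and carry a maternal and a paternal genome. All 6 carry the strain label Landrace x Yorkshire x Duroc (LYD) and were taken whole, and the treatment label is untreated for CN and parthenogenesis for PA. The gilt that carried each embryo is not given by the labels, and the mode of conception and the sire cannot be told apart from the group. The sex of the embryos was not available, so its part could not be separated from the group either.

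The neural tube forms in the days before this stage, and neurons begin to leave the cycle while most of its cells still divide. Proneural factors such as NEUROG1 start neuronal differentiation, RNA-binding proteins of the ELAV family mark the new neurons, and synaptotagmins, UNC13 proteins and neurexins later serve transmitter release and synapse formation. PAX6 patterns the forebrain, eye, hindbrain and spinal cord, and is also needed for the endocrine pancreas. RNA of a whole embryo mixes all of its tissues, so more cells of a type and more RNA per cell cannot be told apart.

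Between 3100284 and 3573406 estimated counts were deposited per embryo. Annotated transcripts of chromosome 2 held 82.8% to 92.7% of them. A single transcript absent from the annotation held 6.88% to 7.74% in CN and 8.44% to 16.9% in PA, the most in PA1. CPM are counts scaled to library size, with an offset for transcript length between embryos, and TPM are scaled to transcript length as well. Both are relative almost wholly to these 2 parts of the counts, and the second part was larger in every PA embryo than in every CN embryo. CN1 stood apart within its group by gene length. Its median log2 CPM was 0.17 below the other CN embryos over the longest 25% of genes and 0.17 above them over the shortest 25%, and PA1 leaned the same way, at -0.11 and 0.13. CN1 was the lowest CN embryo for 7 of the 10 neural genes, so values without it are given where they change a statement.

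**Figure D1:**
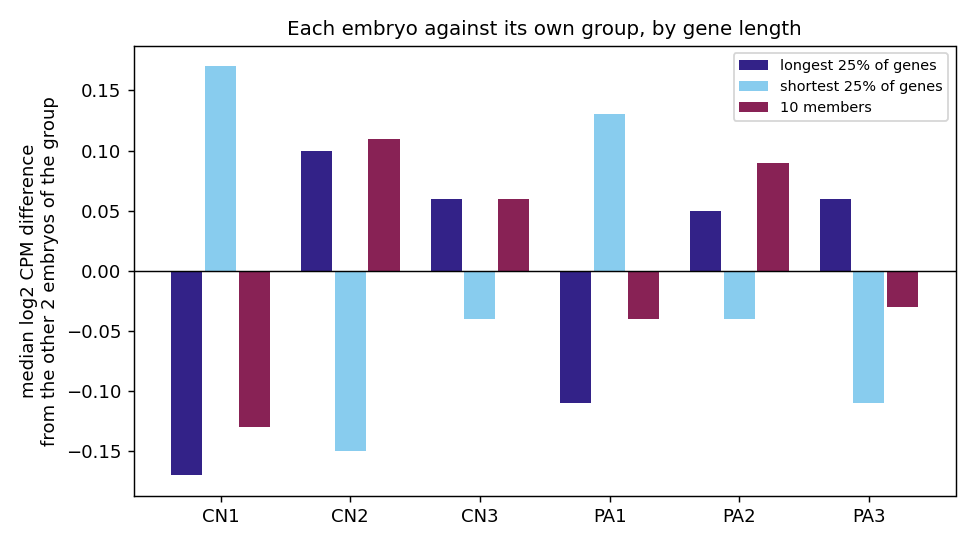
Median difference in log2 CPM of each embryo (x axis) from the other embryos of its group (y axis), over the longest 25% of genes, the shortest 25% and the 10 neural genes, shown as bars from 0. CN1 and PA1 lie below 0 for long genes and above 0 for short genes.

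PAX6 spans chr2:28971565-29001149 on the plus strand of Sscrofa11.1. Its 16 annotated transcripts differ mainly in start site, in the presence of a short exon, called 5a, and in the length of the exon after it. Exon 5a lengthens the paired domain and changes the DNA it binds, and 8 of the 16 transcripts hold it. The next exon, from 28987723, has 216 bases in 12 transcripts and 15 in 4. Exon 5a is shown because its share is given for each embryo below. It lies at chr2:28987587-28987628, and its 42 bases are in capitals between intron bases:
PAX6 exon 5a: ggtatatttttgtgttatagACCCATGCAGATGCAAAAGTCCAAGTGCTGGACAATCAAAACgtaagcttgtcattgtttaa

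The windows of 250 bases before the most upstream annotated start of PAX6, SYT13 and ELAVL3 are shown because these genes lay higher in every PA embryo, and the SYT13 window differs from the others in base composition. Capitals mark the motifs searched on either strand, which were allowed to overlap. They were the GC box GGGCGG, the box CCAAT, the TATA box with the letters TATAAA, and the E-boxes, which bind proneural factors, in the versions CAGCTG, then CAGATG, and last CATATG. The windows were chr2:28971315-28971564 for PAX6, chr2:17119877-17120126 for SYT13 (both plus strand) and chr2:70134349-70134598 for ELAVL3 (minus strand), read 5′ to 3′ along the gene:
PAX6: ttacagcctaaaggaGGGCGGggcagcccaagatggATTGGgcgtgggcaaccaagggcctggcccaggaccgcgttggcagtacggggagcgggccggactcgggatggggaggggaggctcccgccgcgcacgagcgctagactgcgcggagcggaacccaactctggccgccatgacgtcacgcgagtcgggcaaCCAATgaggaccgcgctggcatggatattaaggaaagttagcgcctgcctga
SYT13: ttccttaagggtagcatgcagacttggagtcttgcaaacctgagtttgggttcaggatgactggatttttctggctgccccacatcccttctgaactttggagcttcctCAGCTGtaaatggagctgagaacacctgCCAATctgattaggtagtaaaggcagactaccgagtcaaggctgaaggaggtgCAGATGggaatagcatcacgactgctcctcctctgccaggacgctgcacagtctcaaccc
ELAVL3: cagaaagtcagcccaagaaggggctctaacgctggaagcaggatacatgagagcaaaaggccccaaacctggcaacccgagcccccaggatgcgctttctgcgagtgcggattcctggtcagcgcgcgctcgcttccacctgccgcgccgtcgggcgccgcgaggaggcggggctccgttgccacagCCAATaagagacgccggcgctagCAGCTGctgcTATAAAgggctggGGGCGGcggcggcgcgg

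The PAX6 window was 66.4% G or C with 24 CpG, and that of ELAVL3 66.8% with 26. The SYT13 window was 51.2% with 3 CpG, and those of DPYSL3 (52.8%, 8 CpG) and BDNF (54.0%, 12 CpG) were low as well. Over all 10 genes the median was 65.4% with 19.5 CpG, against 60.4% and 14 over 1539 windows of tested chromosome 2 genes. A GC box was found in 7 of the 10 windows and in 53.3% of all windows. CCAAT was found in 5 (33.1% of all), TATAAA in ELAVL3 alone (7.34%), CAGCTG in ELAVL3, SYT13 and BDNF (14.3%), CAGATG in SYT13 alone (12.0%) and CATATG in none (5.33%). The left and right parts of the RE1 element bound by REST, a repressor of neuronal genes, searched as TCAGCACC and as GGACAGC, were found in none of the 10 and in 1.62% and 4.68% of all windows. These matches describe letters only. The BDNF window, which counts for the GC box, CCAAT and CAGCTG, precedes a start at 32623668 that was at 0 TPM in all 6 embryos, and the first start with TPM lies at 32644661. The start after the SYT13 window held 32.3% of SYT13 TPM on average. For PAX6, the starts at 28971565 and 28971580 held 6.3% and 21.2% of its TPM.

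Levels between genes were compared in TPM, which is per transcript length. The deposited counts lay mostly on chromosome 2, and these TPM are not on the scale of a whole transcriptome. For the gene TH, the mean TPM was 37.3 in CN and 53.1 in PA here, well above the values in the paper. DPYSL3 was the most abundant, from 951 to 1545 TPM, followed by NR2F1 (883 to 1173), ELAVL3 (266 to 435) and PAX6 (75.7 to 166), and each was above the next in all 6 embryos. NRXN2 (38.8 to 91.0 TPM) was above SYT13 (45.7 to 81.9) in 5 of 6 embryos, CN1 being the exception. UNC13A (24.8 to 62.6 TPM) lay below SYT13 in all 6. NEUROG1 (26.7 to 44.2 TPM), BDNF (26.9 to 49.2) and SYT7 (25.2 to 39.9) did not separate from each other. By mean TPM, DPYSL3 was above 92.7% of 1538 tested genes of chromosome 2, PAX6 above 47.4% and SYT7 above 24.9%. The 10 genes lie far apart on the chromosome, with gaps of 2.4 to 37.3 Mb between neighbours.

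In normalised CPM, 8 of the 10 genes were higher in every PA embryo than in every CN embryo, all but SYT7 and BDNF. The background for that pattern was 13.7% of the 1651 genes tested, and nothing is read from the count since the genes were chosen on this difference. The median log2 fold change, PA over CN, was 0.47 over the 10 genes and 0.01 over all genes tested, and it was above 0 for each of the 10 (852 of 1651 genes overall). None of the 10 folds reached 2-fold.

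**Figure D2:**
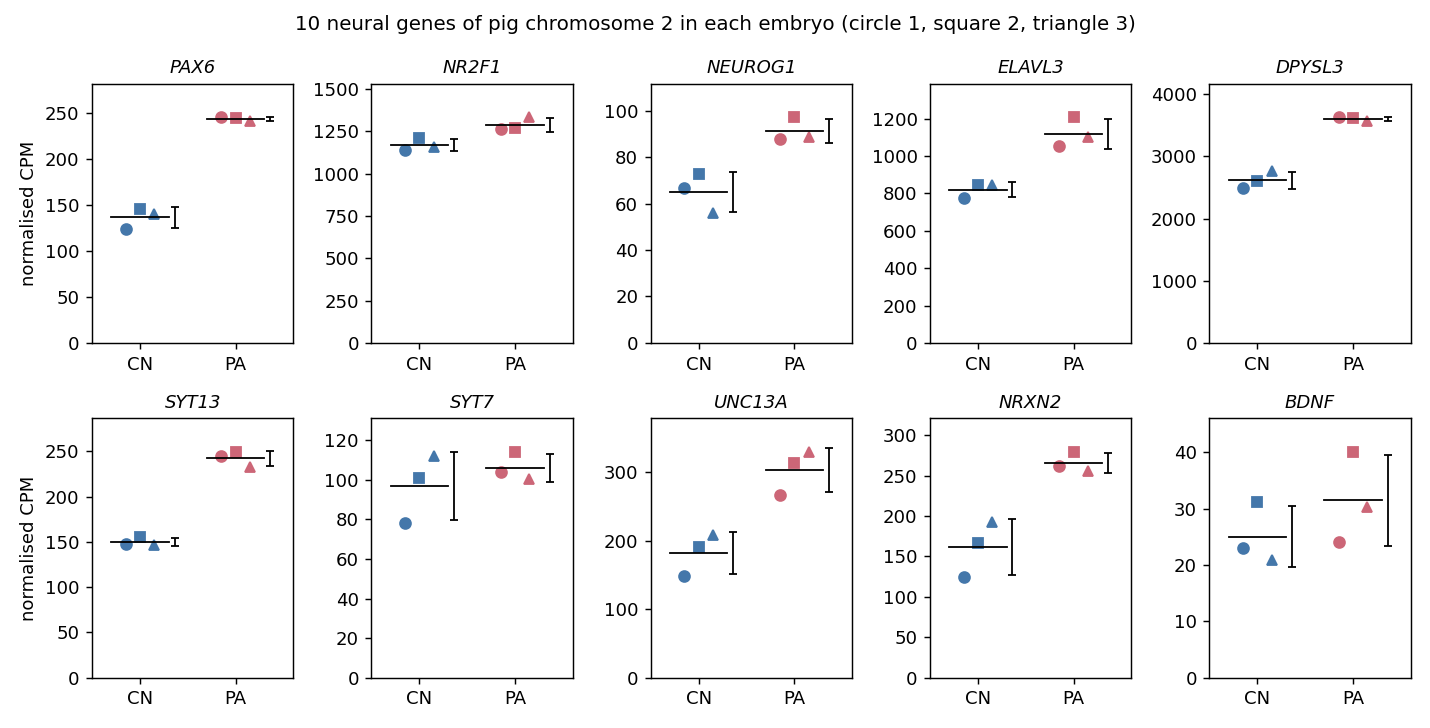
Normalised CPM (y axis, from 0) of the 10 genes in each CN and PA embryo, with a bar at the group mean and the SD beside it (n = 3). The PA points lie above all CN points in every panel but SYT7 and BDNF.

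Among the transcription factors, PAX6 had the widest separation. Its normalised CPM was 124, 145 and 139.9 in CN1, CN2 and CN3, and 245, 244 and 241 in PA1, PA2 and PA3. The PA embryos were nearly equal, with a coefficient of variation of 0.994% against 7.96% in CN, and the lowest PA value was 1.66 times the highest CN value. In TPM the spread was wider, at 7.41% in PA and 15.6% in CN, and that ratio was 1.38. The log2 fold change was 0.84 ± 0.10 (SE), a ratio of 1.78. NR2F1 (COUP-TFI, an orphan nuclear receptor of cortical and hindbrain patterning) had 1136, 1207 and 1157 CPM in CN and 1260.4, 1267 and 1331 in PA. Its groups did not overlap in CPM, yet the lowest PA embryo exceeded the highest CN embryo by a ratio of only 1.04, and the log2 fold change was 0.14 ± 0.07 (SE), 0.09 with library totals and 0.25 with each embryo's trend with transcript length removed, a correction chosen after the data were seen. In TPM the NR2F1 groups did overlap, at 883 to 1101 in CN and 939 to 1173 in PA. NEUROG1, a proneural factor of cranial sensory ganglia and neural tube, had 66.7, 72.8 and 55.8 CPM in CN and 87.8, 97.1 and 88.5 in PA. Its log2 fold change was 0.49 ± 0.14 (SE). In TPM its groups overlapped as well, at 26.7 to 36.9 in CN and 36.4 to 44.2 in PA.

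ELAVL3 (HuC), an RNA-binding protein of postmitotic neurons, had 777, 843 and 843 CPM in CN and 1052, 1207 and 1101 in PA. DPYSL3 (CRMP4), which binds microtubules and actin in growing axons, had 2487, 2603 and 2761 CPM in CN and 3625, 3623 and 3561 in PA. Both had PA values above all CN values, and their log2 fold changes were close, at 0.45 ± 0.08 and 0.46 ± 0.07 (SE). Over 29 bases an exon of DPYSL3 overlaps one of STK32A on the opposite strand, and the library kit was not described as strand-specific. It was the only exon overlap found among the 10 genes.

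SYT13, an atypical synaptotagmin that lacks the residues for calcium binding, had 148, 155 and 147 CPM in CN and 245, 249 and 233 in PA. It varied little within either group (coefficients of variation of 2.88% and 3.36%), and the lowest PA value was 1.51 times the highest CN value. In TPM the coefficients were 10.4% and 6.37%, and the ratio was 1.3. Its log2 fold change was 0.70 ± 0.09 (SE). SYT7, the calcium sensor of slow and asynchronous release, had 78.0, 101 and 112 CPM in CN and 104, 114 and 100.3 in PA. The groups overlapped, and the log2 fold change of 0.13 ± 0.15 (SE) fell to 0.0018 without CN1 and was 0.25 without CN3. In TPM it was 0.09, and -0.12 without CN1. UNC13A (Munc13-1), which primes vesicles at the active zone, had 148, 191 and 208 CPM in CN and 267, 313 and 329 in PA. Its groups were apart, with a log2 fold change of 0.74 ± 0.14 (SE).

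NRXN2, a presynaptic adhesion protein, had 125, 167 and 193 CPM in CN and 262, 279 and 256 in PA. CN1 was the lowest here too, and the spread in CN (21.3%) was wider than in PA (4.36%). The log2 fold change was 0.72 ± 0.15 (SE). BDNF, the neurotrophin that signals through TrkB, was the least counted gene, with 74 to 126 estimated counts per embryo. Its CPM was 23.0, 31.2 and 20.9 in CN and 24, 40.0 and 30.3 in PA. The groups overlapped, the second embryo of each was the highest, and the log2 fold change of 0.33 ± 0.25 (SE) was the least precise of the 10. It moved with single embryos, to 0.13 without PA2, 0.21 without CN3, 0.51 without PA1 and 0.52 without CN2.

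Transcript values were read for the genes with more than 1 transcript, with the caution that isoforms sharing most of their bases are separated by the estimate of the counting program. Transcripts of PAX6 with 1269 coding bases, the canonical form without exon 5a, held 76.6%, 62.4% and 74.3% of its TPM in CN and 70.3%, 62.8% and 77.9% in PA. Transcripts with exon 5a, shown above, held 8.13%, 10.99% and 11.41% in CN and 14.53%, 15.87% and 9.33% in PA. The transcripts with 1068 coding bases, which have the 15-base exon, held 15.3%, 26.6% and 11.4% in CN and 11.5%, 18.4% and 12.7% in PA. Their mean share was 16.0%. The ranges of CN and PA overlapped for all of these forms. By start site, the transcript that begins at 28978114, about 40.0% of PAX6 TPM on average, led in 5 of the 6 embryos, and that at 28971580, just downstream of the window printed above, was ahead in PA1 (31.3% against 27.8%).

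SYT13 had 2 transcripts. That with 1338 coding bases held 66.5%, 65.5% and 67.3% of SYT13 TPM in CN and 58.1%, 72.8% and 75.7% in PA, and it starts at 17120651, downstream of the start used for the window. NR2F1 had 2 as well, and the form of 1269 coding bases held 69.5% to 76.5% of TPM in CN and 71.5% to 76.9% in PA. By estimated counts its mean share was 60.7% rather than 74.2%. ELAVL3 divided over forms of 1083, 1101 and 1104 coding bases, with means of 52.3%, 28.3% and 19.4%. The 1101-base form had 28.5%, 35.9% and 30.9% in CN and 22.0%, 29.0% and 23.1% in PA, overlapping ranges.

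SYT7 came chiefly from its shortest form, of 1212 coding bases, with 70.3% to 90.8% of TPM in CN and 40.8% to 82.7% in PA, PA3 being the low one. The longest SYT7 form, of 1989 coding bases and with its own start site, held 6.05%, 12.2% and 5.41% in CN and 3.14%, 1.49% and 2.82% in PA, every CN value above every PA value. UNC13A was spread over 13 transcripts that the estimate divided unevenly between embryos. Its form of 5136 coding bases held 45.3%, 32.4% and 41.2% in CN but was at 0, 8.39% and 26.9% in PA. In BDNF all TPM lay on forms of 759 coding bases, as alternative first exons are spliced to a common coding exon, and the start at 32645627 held 55.5% to 85.6% in CN and 48.6% to 79.7% in PA. These separations were picked from many forms after their values were seen and were not tested. NEUROG1, DPYSL3 and NRXN2 each had 1 transcript.

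**Figure D3:**
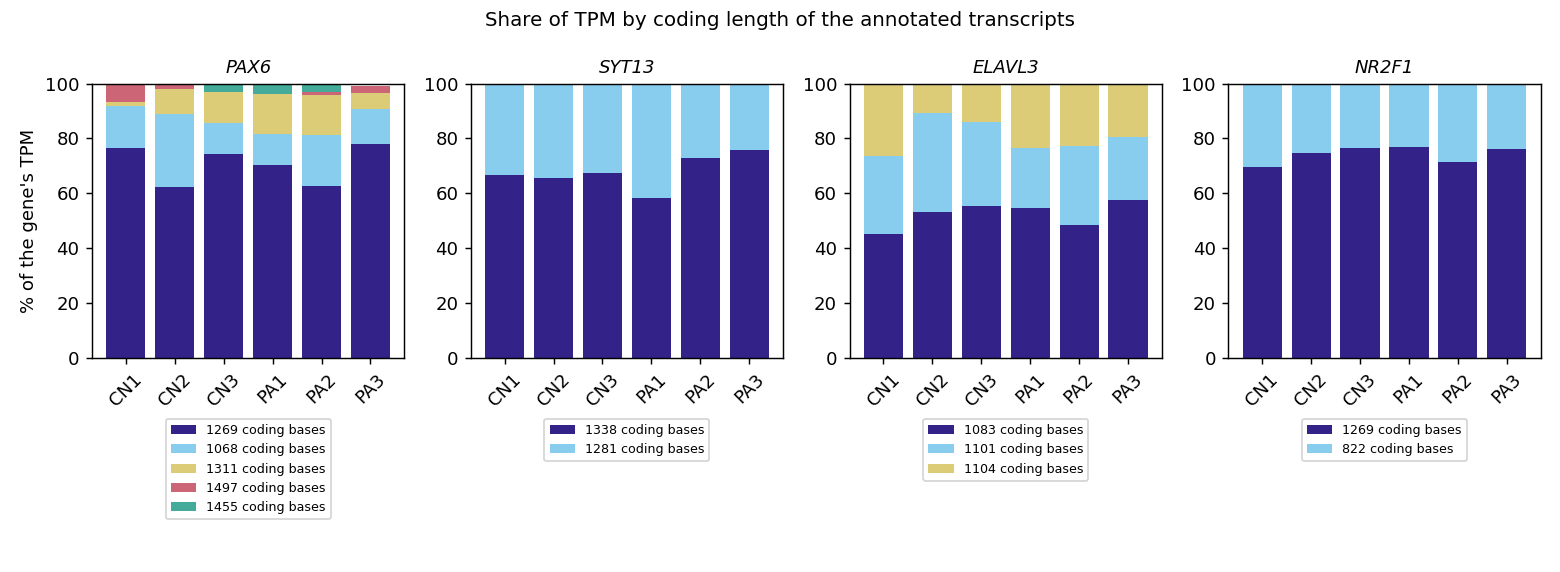
Share of a gene's TPM (y axis, percent) by coding length of its transcripts in each embryo (x axis), as stacked bars for PAX6, SYT13, ELAVL3 and NR2F1. Forms under 0.5% on average are not drawn, and the 1269-base PAX6 form holds 62.4% to 77.9% in all 6 embryos.

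The genes with the profile most like PAX6 and SYT13 were sought by Pearson's r of log2 CPM over the 6 embryos, among 1427 genes with a mean of at least 10 CPM. The values are a description, since any gene that differs between groups with little spread scores high. PAX6 was closest to CARS (r = 0.997), DPYSL3 (0.99) and XAB2 (0.99). CARS, a cysteinyl-tRNA synthetase gene, went only from 398 to 414 CPM in CN and from 448 to 451 in PA, so likeness in shape was not likeness in size. SYT13 was closest to PAX6 (r = 0.99), CARS (0.982) and TMEM59L (0.981). PAX6 TPM exceeded SYT13 TPM by a ratio of 1.66, 1.85 and 1.88 in CN and of 1.97, 1.93 and 2.03 in PA.

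A second list held 75 other neural genes, 68 of them on chromosome 2 and 66 tested. These were tested by edgeR with adjustment over all 1651 genes. Of these, 8 were higher in PA and 0 lower at an adjusted p-value below 0.05, that is 12.1% higher, against 2.00% higher and 4.36% lower (33 and 72 genes) over all genes. At an unadjusted p-value below 0.05 in edgeR, 20 lay higher and 1 lower, against 9.02% higher and 11.8% lower over all genes. DESeq2 called 10 higher and 0 lower, against 3.57% and 6.84% over all genes. The median log2 fold change was 0.23, and 50 of the 66 lay above 0. Their share is described only, since the list was compiled with earlier results of these data known.

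The count of 8 depended on single embryos. It fell to 4 without CN1, to 1 without CN2, to 2 without CN3, to 1 without PA2 and to 1 without PA3, and was 9 without PA1. The 33 genes higher in PA over all genes fell in the same fits to 32, 5, 14, 11 and 16, and were 53 without PA1. With library totals 6 reference genes were called. Over the 12 alternatives tried, CPLX2 passed in 10, NCAN and ATCAY in 9 each, DBX1 in 8, MAST1 in 7, SLC1A2 in 6 and TUBB4A in 5. TUBB4A was lost with library totals, with the replicate block and without each embryo but PA1, with an adjusted p-value of up to 0.13 in edgeR or DESeq2. Over all genes, the split of 33 higher and 72 lower became 23 and 102 with library totals, and 77 and 83 once each embryo's trend with transcript length was removed.

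The called genes belonged to 4 of the 7 groups. Among neuronal transcription factors (7 tested), DBX1, a homeobox gene of interneuron progenitors, rose from 50.0 ± 5.36 to 82.6 ± 4.32 CPM (SD, n = 3), with a log2 fold change of 0.72 ± 0.14 (SE, edgeR adjusted p = 0.0214). MEF2C, the most abundant of that group, had a fold of -0.04 ± 0.13 (SE, edgeR adjusted p = 0.871). Among progenitor and glial genes (8 tested), SLC1A2, a glial glutamate transporter (0.79 ± 0.18, edgeR adjusted p = 0.0415), and NCAN, the brain proteoglycan neurocan (0.55 ± 0.11, 0.0227), rose. The abundant MDK (0.09 ± 0.11, edgeR adjusted p = 0.705) and VCAN (0.17 ± 0.18, 0.655) did not pass the test.

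Among RNA-binding and cytoskeletal genes (9 tested), TUBB4A, a beta-tubulin (0.41 ± 0.09, edgeR adjusted p = 0.0412), and MAST1, a microtubule-associated kinase (0.58 ± 0.13, 0.0412), rose, and MAPK8IP1 had -0.07 ± 0.07 (0.619). Of 9 vesicle and active zone genes, CPLX2, a complexin that binds the SNARE complex (0.55 ± 0.10, edgeR adjusted p = 0.0188), and ATCAY, the brain protein caytaxin (0.56 ± 0.11, 0.0187), rose, while RAB3A (0.03 ± 0.10, 0.901) and PPFIA1 (-0.07 ± 0.08, 0.67) did not pass. SNCB, named after its values were seen, had 19, 26 and 24 estimated counts in CN and 1, 9 and 4 in PA, with a log2 fold change of -2.86 ± 0.97 that missed the threshold (edgeR adjusted p = 0.131).

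None of the 15 postsynaptic, receptor and channel genes, the 11 axon guidance and neurotrophic genes or the 7 neuropeptide and neuroendocrine genes passed in the edgeR fit whose values are given here, and none in DESeq2. Without the length offset, CALCB of the last group, named after its values were seen, was called lower in PA. Its log2 fold change with the offset was -0.56 ± 0.28 (SE, edgeR adjusted p = 0.315). At an unadjusted p-value below 0.05 in edgeR there were 5, 0 and 1 genes of these groups, each higher in PA, beside the 9.02% of all genes given above. Their median log2 fold changes were 0.29, 0.08 and 0.05. The most abundant were CNIH2 (0.29 ± 0.09, edgeR adjusted p = 0.104) and HOMER1 (-0.08 ± 0.09, 0.689), PTPRS (0.20 ± 0.12, 0.409) and SEMA6A (0.17 ± 0.12, 0.498), and INS (-0.08 ± 0.43, 0.93) and ABCC8 (0.05 ± 0.15, 0.866). Whether the groups of genes differ from each other was not tested.

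**Figure D4:**
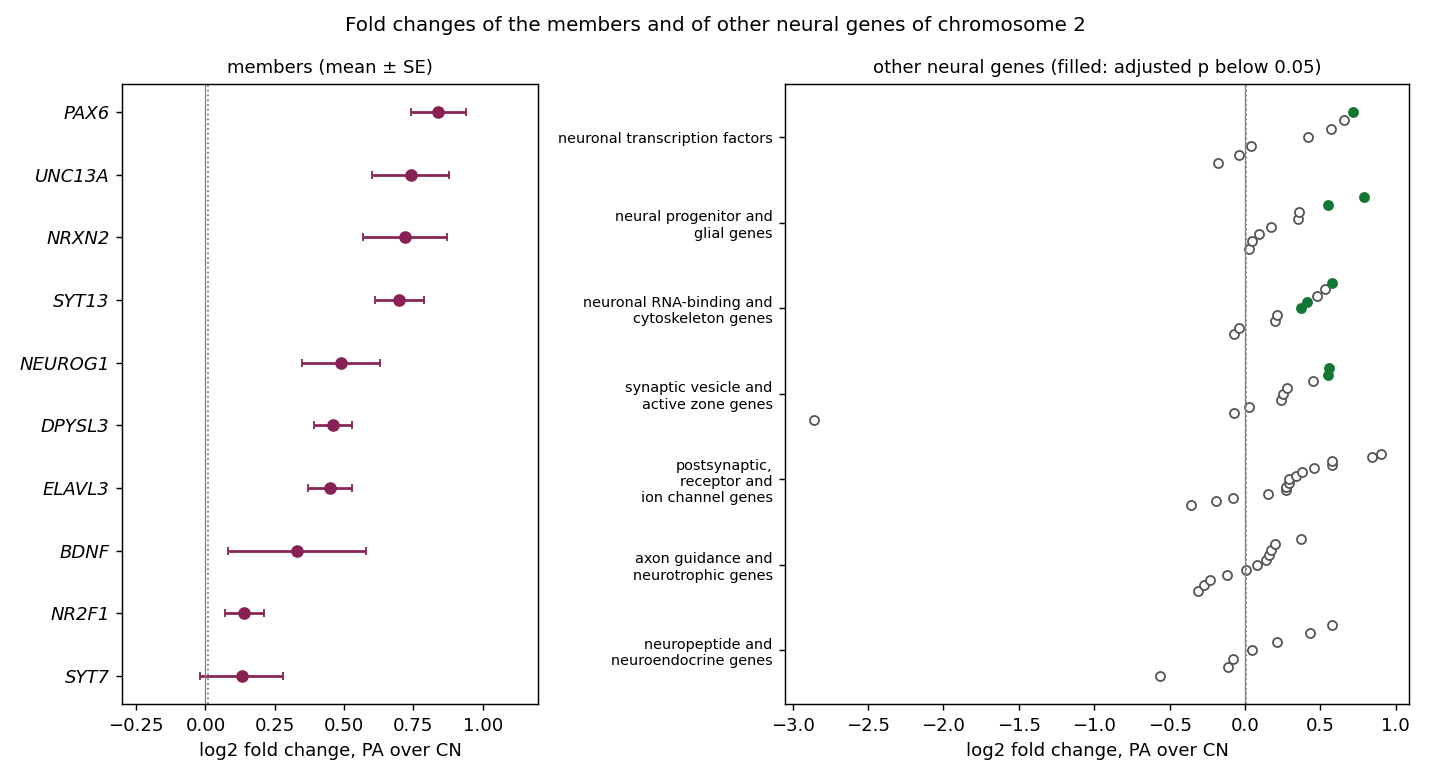
Log2 fold change, PA over CN (x axis), of the 10 neural genes with the SE (left) and of 66 other neural genes by group (right), where filled points had an edgeR adjusted p-value below 0.05. The dotted line is the median of all genes tested (0.01), and the 8 filled points all lie to its right.

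Markers of other tissues moved the other way in part. All 5 skeletal muscle genes (MYOD1, TNNI2, TNNT3, ACTN3, CSRP3) had folds below 0, and their summed level was 362 to 460.5 CPM in CN and 236 to 261 in PA. TNNI2, fast troponin I, was the one that fell, with a log2 fold change of -1.34 ± 0.15 (SE, edgeR adjusted p = 0.00165). Of 3 kidney tubule transporters, SLC22A8 (-2.83 ± 0.38, edgeR adjusted p = 0.0033) and SLC22A12 (-4.33 ± 0.39, 0.000474) fell and SLC22A6 (0.12 ± 0.29, 0.847) did not pass, and the sum was 166 to 228 CPM in CN and 24.7 to 50.3 in PA. The erythroid genes KLF1 and EPOR (189 to 303 in CN, 162 to 190.0 in PA) and the hepatic genes F2, C3 and SERPING1 gave no call. The hepatic sum was 6837 to 7496 in CN. It was 10123 in PA1, above every CN embryo, and 5894 in PA2 and 4997 in PA3, below every CN embryo. The part of tissue makeup in the neural gene values was not tested.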

How the data were processed

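RNA-seq of 6 whole pig embryos was used. Per the labels, total RNA was made into TruSeq v.2 libraries. The authors quantified the reads against the pig transcriptome with Salmon 1.3.0 in mapping-based mode and deposited, for each of 81496 transcripts per embryo, estimated counts, which are not whole numbers and not normalized. The authors deposited TPM beside them, scaled to a common sum per embryo. Transcripts were joined to genes with NCBI Annotation Release 106 of Sscrofa11.1, in which 174 were not found.

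Counts and TPM were summed per gene over chromosome 2 loci for the 10 genes. The fit covered all genes: sums were rounded and tested in R 4.3.3 with edgeR 4.0.16, quasi-likelihood and two-sided, with TMM factors, a length offset and filterByExpr (minimum count 10, minimum total 15). P-values were adjusted by Benjamini-Hochberg, and the threshold was 0.05. The SE is the absolute log2 fold change over the square root of F. Normalised CPM uses the same library sizes and the length offset, which corrects each gene for its mean transcript length in each embryo. It is not scaled to length between genes. Without the offset the log2 fold changes of UNC13A and BDNF were 0.65 and 0.26, against 0.74 and 0.33 with it. Over the totals before TMM, 3 counts equal 0.84 to 0.968 CPM. TPM ratios had a pseudocount of 0.1. The paper describes 2 surrogate gilts for PA and 2 mated gilts for CN. With 3 embryos per group, at least 2 of each group therefore shared a gilt. P-values measure the spread between these embryos and not between litters. No within-group pair of libraries was identical within counting noise. The scripts were tested on simulated data. The genes, the lists and the tests were chosen with earlier results of these data known. All 10 genes are named, with every reference neural gene past the threshold except 1 that is counted but not reported here, the 2 of highest TPM in each group, and the 3 profiles most like PAX6 and SYT13. Alternatives were DESeq2 1.42.0, library totals, no length offset, no filter, the replicate block, leaving out each embryo, a pseudocount of 1, transcript shares by counts and, added after seeing the data, removal of the length trend. Sequences are from the RefSeq Sscrofa11.1 assembly, read with Python 3.11.15.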

Additional observations from a re-analysis of the deposited data

How the results depend on the processing

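The 105 genes past the threshold became 172 with DESeq2, 195 with no expression filter (4266 genes tested) and 160 with the length trend removed, and ranged from 43 to 141 when an embryo was left out. The 8 reference neural genes became 13 with no expression filter and 13 with the length trend removed, and ranged from 1 to 9 when an embryo was left out. Of the reference genes called without the length offset, 2 were lower in PA (CALCB and SNCB), and with no expression filter 1 (SNCB), against 0 otherwise. The share of calls that were higher in PA was 31.4%, but 18.4% with library totals, which moved the median of all genes to -0.04, and 48.1% with the length trend removed (median 0.08). Same-numbered embryos share only a number. Their deviations correlated at 0.254, 0.122 and 0.0424, and CN1 alone correlated best with its own number. With the replicate block, 110 genes passed, 85 of them among the 105, and 9 reference genes, without SLC1A2 and TUBB4A. The log2 fold changes of all 10 neural genes stayed above 0 under the 12 alternatives, from 0.77 to 0.92 for PAX6 and from 0.64 to 0.72 for SYT13. As log2 TPM ratios, NR2F1 ranged from -0.0028 to 0.16 when an embryo was left out, with -0.00072 without CN1 and the lowest without PA3, and SYT7 ranged from -0.12, without CN1, to 0.21. The cause was not tested. BDNF had the fewest counts of the 10 genes, and the division of counts among isoforms has no error estimate here.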
